A study of Vitis vinifera with 6 samples.

Results

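The 3 enzymes of proanthocyanidin synthesis and 4 MYB transcription factors of the flavonoid pathway were followed in grapevine leaves that transiently overexpressed NAC61. The 7 genes were taken by identifier from 34369 features, each measured by 1 probe: LAR1 (VIT_01s0011g02960), LAR2 (VIT_17s0000g04150), ANR (VIT_00s0361g00040), MYBPA1 (VIT_15s0046g00170), MYBPA2 (VIT_11s0016g01310), MYB5a (VIT_08s0007g07230) and MYBF1 (VIT_07s0005g01210). Of these, 6 passed the detection filter (signal well above background on 3 or more arrays) and were tested, and MYBPA2 did not. The comparison asks whether higher NAC61 expression was accompanied by a change in these flavonoid genes.

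Young leaves came from in vitro plantlets of Vitis vinifera cv. Thompson Seedless, which the labels give as 6 weeks old. Plantlets of both groups were vacuum infiltrated with Agrobacterium tumefaciens strain C58C1 carrying the vector pK7WG2, with NAC61 behind the constitutive 35S promoter (OX.NAC61, 3 arrays) or with a non-coding sequence (control, 3 arrays), and were sampled 7 days later. The expression was transient, so a leaf held transformed and untransformed cells, and the OX.NAC61 plants were those chosen by the study for high NAC61 expression. Each array carried the RNA of a different plant.

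Proanthocyanidins, the condensed tannins of grape skin, seed and young leaves, are polymers of flavan-3-ols. LAR reduces leucoanthocyanidin to catechin, whereas ANR reduces anthocyanidin to epicatechin, so the enzymes feed the polymer from neighbouring branch points of the pathway that also gives anthocyanins. In grapevine, MYBPA1 and MYBPA2 activate LAR and ANR genes, MYB5a activates several flavonoid genes, and MYBF1 activates flavonol synthase in the branch that leads to flavonols.

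The arrays differed in brightness: the 75th percentile of the processed signal was 888.5 at the lowest (control replicate 3) and 2569 at the highest (OX.NAC61 replicate 2), and between 24501 and 28121 features were well above background on an array. Scan day 1 held the 3 controls together with replicate 1 of OX.NAC61, whereas day 2 held its replicates 2 and 3 and no control. NAC61 itself was higher by 1.62 log2 units in OX.NAC61 (SE 0.21, limma adjusted p = 0.029). MYB14, a regulator of stilbene synthesis, was higher by 2.69 (SE 0.36, adjusted p = 0.029). Both calls were lost without control replicate 2 (adjusted p = 0.13 for NAC61 and 0.14 for MYB14), without control replicate 3 (0.10 and 0.11) and with scan day as a block (0.20 and 0.22). The 6 leaf mesophyll markers were well above background on all 6 arrays. Their summed level was 81.7 to 89.4 times the 75th percentile on the control arrays and 32.7 to 47.8 times on the OX.NAC61 arrays. Of the 6, 5 passed the test as lower, against 3.72% of all tested features. This count of calls did not outlast leaving out either of control replicates 2 and 3. The 5 were annotated through the study's own calls on these arrays, so neither their count nor the summed level is independent evidence. The remaining marker, rubisco small chain, differed by -0.71 (SE 0.21, limma adjusted p = 0.13) and was not called. The part of these markers in the members' values was not tested. The 2 xylem markers summed to between 0.425 and 0.481 in controls and between 0.167 and 0.331 in OX.NAC61, and the guard cell marker MYB60 ranged from 0.901 to 1.43 and from 0.77 to 1.56. In leaf RNA, fewer cells of a type and less RNA per cell cannot be told apart.

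None of the 6 tested members passed the test between OX.NAC61 and control leaves, so that neither the enzymes nor the MYB regulators were called higher or lower. Calls required more than a 1.5-fold difference and an adjusted p under 0.1 (Benjamini-Hochberg), a rule that called 1843 of 27052 tested features (6.81%), 836 of them higher (3.09%) and 1007 lower (3.72%). The count was 0 of 6 members at this rule, and 0 of 6 also had an unadjusted p under 0.05, against 5513 of all tested features. LAR1, ANR, MYBPA1 and MYBF1 had positive differences and LAR2 and MYB5a negative ones. Their median difference was 0.40 on the log2 scale, beside -0.05 for all tested features. The 2 groups of arrays overlapped for each of the 6. Among all tested features the OX.NAC61 arrays lay wholly above the controls for 9.88% and wholly below for 16.2%.

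LAR1, which makes catechin, had the widest spread of the members. Its log2 level relative to the 75th percentile of the array was 1.61, 0.45 and -0.29 on control replicates 1, 2 and 3, and 2.23, 1.29 and 0.40 on OX.NAC61 replicates 1, 2 and 3. OX.NAC61 replicate 1 exceeded every control, whereas replicates 2 and 3 fell within the control range. Before scaling, the processed signal lay between 728.4 (control replicate 3) and 8309 (OX.NAC61 replicate 1). The controls spanned 3.73-fold and the OX.NAC61 arrays 3.55-fold. The control SD of 0.96 was wider than that of 96.8% of tested features, whose median was 0.20. The mean was 0.59 ± 0.96 in controls and 1.31 ± 0.91 in OX.NAC61 (SD, n = 3 each). The difference of 0.71 (SE 0.62, limma adjusted p = 0.58) did not exceed the spread between replicates. Its 95% interval ran from 1.71-fold lower to 4.60-fold higher.

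LAR2, the second leucoanthocyanidin reductase, was almost level. Its log2 level was -0.99, -0.75 and -0.74 on the controls and -0.78, -1.20 and -1.02 on the OX.NAC61 arrays. Control replicate 1 lay below OX.NAC61 replicate 1, and OX.NAC61 replicates 2 and 3 lay below all controls. The arrays spanned 1.19-fold in controls and 1.34-fold in OX.NAC61. The difference was -0.17 (SE 0.17, limma adjusted p = 0.62), with a 95% interval from 1.49-fold lower to 1.17-fold higher. For LAR2 this interval therefore held no change of 1.5-fold or more in either direction, unlike the interval of LAR1. The log2 ratio of LAR1 to LAR2 signal within an array was 0.88 higher on the OX.NAC61 arrays, but with an SD of 1.09 in controls and 0.81 in OX.NAC61 this did not pass an exact two-sided permutation test (p = 0.3, where 0.1 is the smallest that 3 against 3 arrays allow).

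ANR, which makes epicatechin, had a processed signal between 2078 and 17092 before scaling. Its log2 level was 2.59, 2.03 and 1.23 on the controls and 3.27, 2.53 and 1.86 on the OX.NAC61 arrays. Control replicate 3 was lowest and OX.NAC61 replicate 1 highest, and OX.NAC61 replicate 3 lay below 2 of the 3 controls. The group means were 1.95 ± 0.69 and 2.55 ± 0.70 (SD, n = 3 each). The difference was 0.60 (SE 0.46, limma adjusted p = 0.53), with an interval from 1.43-fold lower to 3.31-fold higher.

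**Figure D1:**
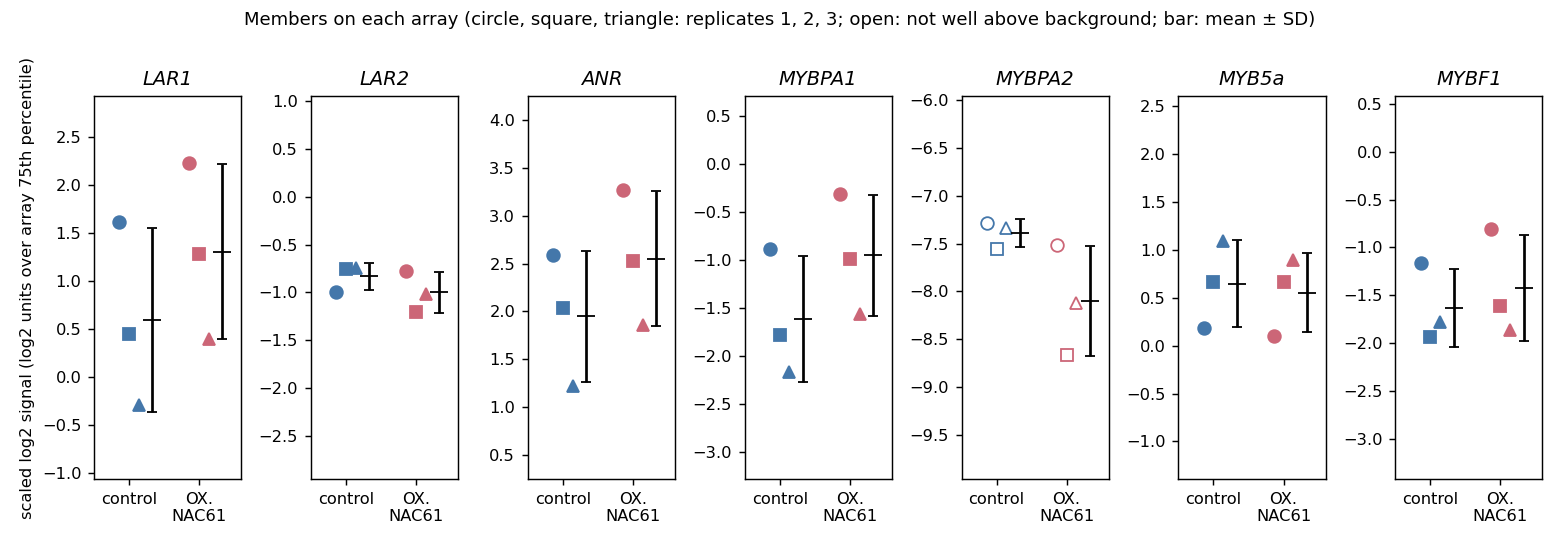
Scaled log2 signal of the 7 members on each array, in panels of equal height (4 log2 units), with control in blue, OX.NAC61 in red and the mean ± SD (n = 3) beside the points. LAR1, ANR and MYBPA1 spread over 2.39-fold or more within each group, LAR2 is nearly level, and the open points of MYBPA2 are not well above background.

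Among the regulators, MYBPA1, an activator of LAR and ANR genes, had log2 levels of -0.89, -1.79 and -2.17 on the controls and -0.31, -0.99 and -1.56 on the OX.NAC61 arrays. As for ANR, control replicate 3 was lowest and OX.NAC61 replicate 1 highest. The difference of 0.66 (SE 0.43) gave the lowest p of the members, 0.17 before and 0.45 after adjustment by limma over all tested features. The interval ran from 1.30-fold lower to 3.26-fold higher.

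MYBPA2, the related activator, was not well above background on any of the 6 arrays. Its processed signal was 10.3, 7.06 and 5.51 on the controls and 9.66, 6.32 and 7.88 on the OX.NAC61 arrays. Both groups were thus below the detection limit of the probe, and no fold is reported for MYBPA2.

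MYB5a, a broader activator of flavonoid genes, had log2 levels of 0.18, 0.66 and 1.09 on the controls and 0.10, 0.66 and 0.90 on those of OX.NAC61. Both groups covered nearly the same range, and replicate 1 was lowest in both. Before scaling, the signal lay between 1831 and 2106 on the 4 arrays of day 1 and was 4062 and 4073 on the 2 arrays of day 2, which also had the highest 75th percentiles. After scaling the difference was -0.09 (SE 0.30, limma adjusted p = 0.90), with an interval from 1.77-fold lower to 1.56-fold higher.

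MYBF1, the flavonol regulator, had log2 levels of -1.17, -1.94 and -1.78 on the controls and -0.81, -1.61 and -1.86 on those of OX.NAC61. The 2 arrays labelled replicate 1 were the highest of their groups, and the other 4 lay close together. The difference was 0.20 (SE 0.34, limma adjusted p = 0.79), with an interval from 1.52-fold lower to 2.02-fold higher. Exact two-sided permutation tests of the 6 members gave p between 0.2 for LAR2 and 0.7 for MYB5a.

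The spread between replicates set what could be called. With the SE of each gene and the largest p that was called among all features, a call would have needed a difference of 5.31-fold for LAR1, 3.52-fold for ANR, 3.23-fold for MYBPA1, 2.48-fold for MYBF1, 2.27-fold for MYB5a and 1.57-fold for LAR2. With 3 arrays a group and no block in this fit, smaller changes of these genes would not have been called.

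**Figure D2:**
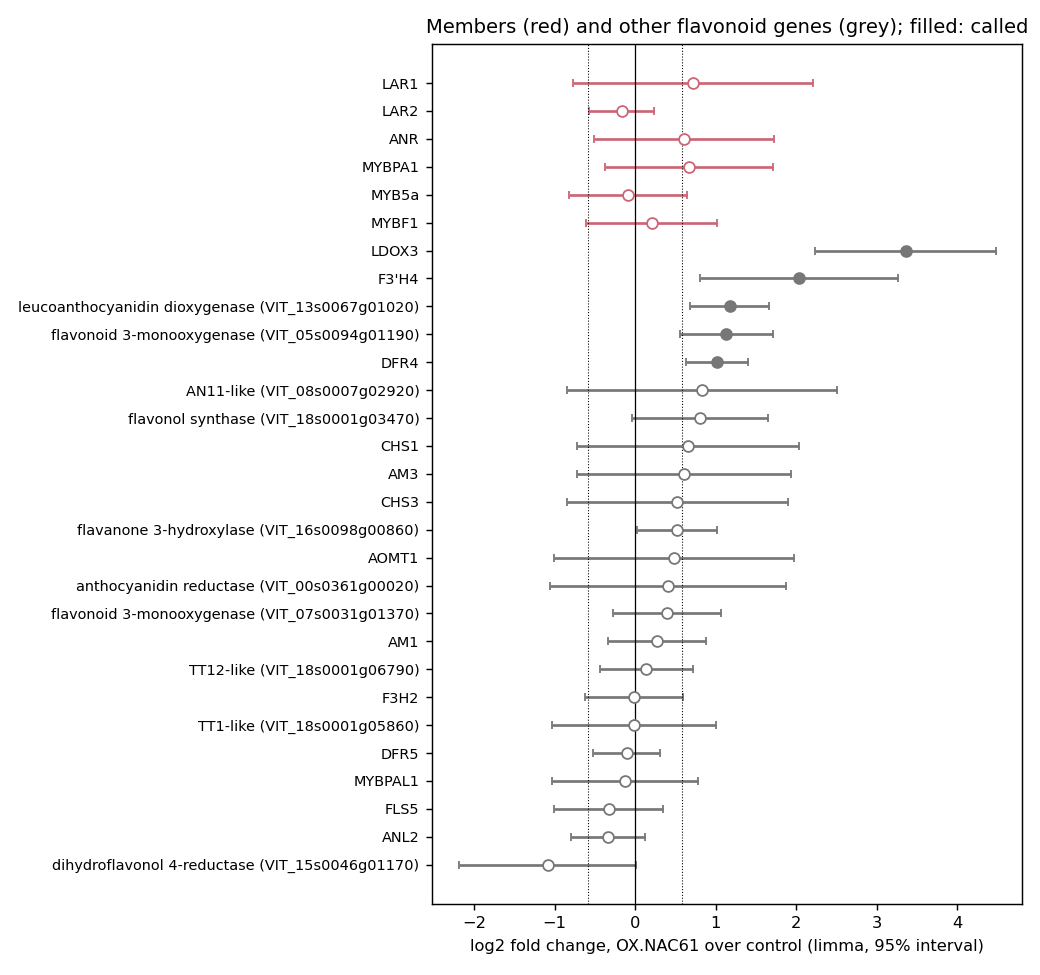
Log2 fold change of OX.NAC61 over control with the 95% interval from limma for the 6 tested members (red) and the 23 tested genes of the flavonoid list (grey), where filled points are called and dotted lines mark 1.5-fold. The intervals of all 6 members cross 0, and the 5 called genes lie at 1.01 or above.

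The differences from the control mean also depended on which OX.NAC61 array was used. On scan day 1, OX.NAC61 replicate 1 lay above the control mean by 1.64 for LAR1, 1.32 for ANR, 1.31 for MYBPA1 and 0.82 for MYBF1 on the log2 scale, and below it by 0.54 for MYB5a (-0.54). The mean of the 2 arrays of day 2 differed from the controls by 0.25 for LAR1, 0.25 for ANR, 0.34 for MYBPA1, -0.11 for MYBF1 and 0.13 for MYB5a. LAR2 differed by 0.05 on day 1 and by -0.28 on day 2. Since day 1 held 1 OX.NAC61 array and day 2 held no control, scan day and plant cannot be told apart here. Replicate 1 was also the highest control for LAR1, ANR, MYBPA1 and MYBF1. Against the control of the same number, the differences varied less, from 0.61 to 0.84 for LAR1, 0.50 to 0.68 for ANR and 0.58 to 0.80 for MYBPA1. Those of LAR2 (-0.45 to 0.21) and MYBF1 (-0.08 to 0.36) changed sign. Whether the numbers mark pairs is not known.

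LAR1, ANR and MYBPA1 varied together over the 6 arrays, within the control group as well as within the OX.NAC61 group. Their pairwise Pearson r over the 6 arrays was 0.976 to 0.990 (Spearman rho 0.943 to 1.0), and 0.972 to 0.997 after the mean of each group was removed. Without the 2 arrays farthest from the median of the first gene, OX.NAC61 replicate 1 and control replicate 3, r was 0.920 to 0.976. The log2 ratio of ANR to MYBPA1 had an SD of 0.15 over the 6 arrays, against 0.70 for ANR and 0.68 for MYBPA1 alone. These values are descriptions over 6 arrays that share one scaling factor per array. With quantile normalisation in its place r was 0.985 to 0.990, and in the values the authors deposited 0.958 to 0.992.

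Among 26985 other features measured on all arrays, MYBPA1 ranked 3 and ANR ranked 9 in likeness to LAR1. The order of arrays by LAR1 level, from control replicate 3, OX.NAC61 replicate 3, control replicate 2, OX.NAC61 replicate 2 and control replicate 1 to OX.NAC61 replicate 1, was also the order for ANR. It mixed the groups, with replicate 3 lowest and replicate 1 highest in each group. At each replicate number, the OX.NAC61 array lay above the control.

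MYBF1 followed the same arrays less closely, with r of 0.834 to 0.888 with LAR1, ANR and MYBPA1. MYB5a ran opposite to them, at r of -0.942 to -0.893, and its order of arrays was the reverse of that of LAR1 and ANR (rho -1.0). Without the 2 farthest arrays these correlations of MYB5a were -0.826 to -0.668. LAR2 followed none of the others, at r between -0.299 and 0.040.

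**Figure D3:**
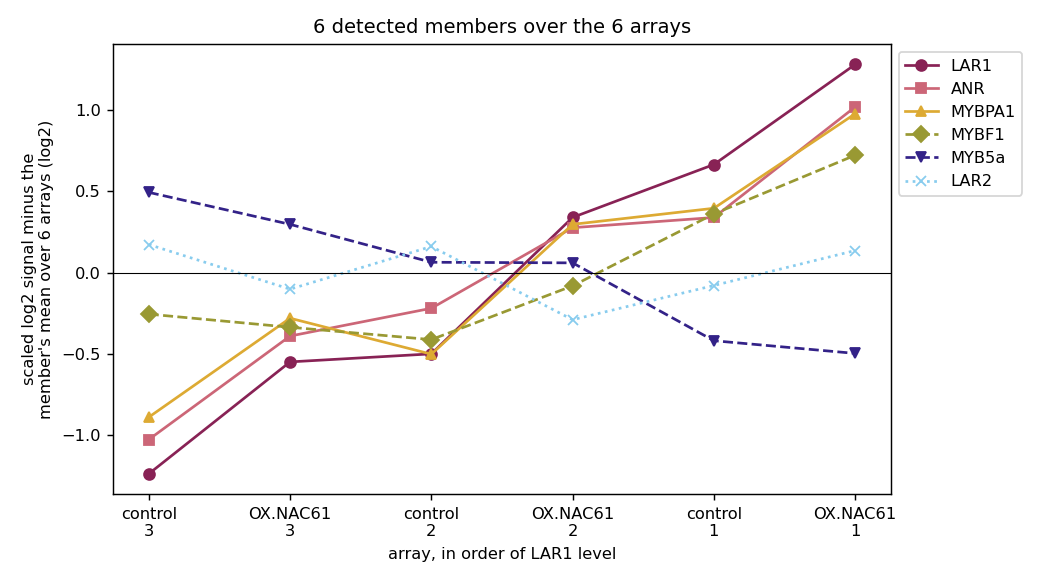
Scaled log2 signal of the 6 detected members, each minus its own mean over the 6 arrays, with arrays placed in order of LAR1 level and lines joining the values of one gene. LAR1, ANR and MYBPA1 climb together across both groups (r of at least 0.976), MYB5a declines, and LAR2 stays within 0.29 log2 units of its mean.

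By likeness over the 6 arrays, the features closest to each member outside the list were as follows. For LAR1 they were VIT_09s0002g02150 (r = 0.998) and AM3, an anthocyanin transporter of the anthoMATE group (r = 0.995). AM3 was also second for ANR (r = 0.992), after VIT_13s0064g00680 (r = 0.996). MYBPA1 was closest to VIT_14s0219g00210 (r = 0.998) and VIT_03s0091g01290 (r = 0.995), MYB5a to VIT_12s0035g01980 (r = 0.993) and VIT_04s0023g00110 (r = 0.992), MYBF1 to VIT_11s0016g02010 (r = 0.987) and VIT_12s0028g03550 (r = 0.986), and LAR2 to VIT_08s0040g02320 (r = 0.998) and VIT_14s0108g01090 (r = 0.996). A list of 26985 features ranked on 6 arrays yields high values for any gene, so these are the tops of a ranking and no more.

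Among other genes of the pathway, some were called and others shared the array pattern of LAR1. The flavonoid list held 24 further genes, of which 23 were tested and 5 were called, 5 higher and 0 lower in OX.NAC61 (21.7%, against 6.81% of all tested features). Their median difference was 0.49, beside -0.05 for all features. The list is not independent of these arrays, since 4 of its genes were annotated in the study because it had called them here. Without those 4, 2 of 19 were called. The 5 calls became 0 without control replicate 2, without control replicate 3 or with scan day as a block, 1 without OX.NAC61 replicate 3, 2 without OX.NAC61 replicate 2 and 6 without OX.NAC61 replicate 1.

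LDOX3, a leucoanthocyanidin dioxygenase, the enzyme class that supplies the anthocyanidin substrate of ANR, was the largest of the 5. It rose from a log2 level of -3.95 ± 0.57 to -0.59 ± 0.80 (SD, n = 3 each), a difference of 3.36 (SE 0.46, limma adjusted p = 0.030). It was smaller with other background corrections, at 1.91 in the deposited values and 2.23 under normexp with quantile normalisation, both called, and 1.61 under normexp with 75th percentile scaling, which called no feature. The leucoanthocyanidin dioxygenase VIT_13s0067g01020 rose by 1.17 (SE 0.20, adjusted p = 0.045). DFR4, a dihydroflavonol reductase, which makes the leucoanthocyanidin substrate of LAR, rose by 1.01 in this fit (SE 0.16, adjusted p = 0.038), but its size and sign depended on the background correction. It was not called at 0.24 in the deposited values, at 0.41 under normexp with quantile normalisation and at -0.98 under normexp with 75th percentile scaling. DFR4 was also dim, with a mean log2 level of -5.17 in controls, against 2.30 for DFR5 of the same enzyme class. DFR5 was level, at -0.10 (SE 0.17, limma adjusted p = 0.79). The dihydroflavonol reductase VIT_15s0046g01170 differed by -1.09 (SE 0.46, adjusted p = 0.25) and was not called. A rise of this step as a whole was therefore not shown.

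F3'H4, a flavonoid 3'-hydroxylase, rose by 2.04 in this fit (SE 0.51, adjusted p = 0.095) and was not well above background on 1 of the 3 controls. It was not called at 0.46 in the deposited values, at 0.77 under normexp with quantile normalisation and at -0.55 under normexp with 75th percentile scaling. Its call was also lost with quantile normalisation (adjusted p = 0.11), robust variance (0.10) and no filter on dim probes (0.12). The flavonoid 3-monooxygenase VIT_05s0094g01190 rose by 1.13 (SE 0.24, adjusted p = 0.068), and differed by 0.50 without a call under normexp with 75th percentile scaling. LDOX3, VIT_13s0067g01020 and VIT_05s0094g01190 were among the 4 genes annotated through the study's own calls. By step, 2 of 7 early genes and 3 of 6 late genes were called, where 6.81% of all tested features were. The counts were 0 of 2 flavonol synthases, 0 of 4 genes of decoration and transport and 0 of 4 regulators. Differences between steps were not tested. Of the 3 late calls, LDOX3 and VIT_13s0067g01020 were annotated through the study's own calls, and DFR4 was not called with the other background corrections. The same limits held for the 2 early calls, VIT_05s0094g01190 and F3'H4 respectively.

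Of the 23 genes, 6 had r above 0.9 with LAR1 (26.1%), as did 307 of 26985 features (1.14%). They were the chalcone synthases CHS1 (r = 0.943) and CHS3 (r = 0.987), which open the flavonoid pathway, the anthocyanin O-methyltransferase AOMT1 (r = 0.976), AM3, the gene annotated AN11-like (r = 0.968), a name given for the petunia regulator AN11, and the anthocyanidin reductase VIT_00s0361g00020 (r = 0.935). None of these 6 was called, with differences of 0.41 to 0.83 and adjusted p of 0.56 to 0.76. On the log2 scale OX.NAC61 replicate 1 lay 1.27 to 1.81 above the control mean for them, and the day 2 mean lay between -0.16 and 0.34 from it. The 5 called genes had r of 0.13 to 0.59 with LAR1 and lay 0.87 or more above the control mean on day 1 and 1.01 or more on day 2. This contrast largely follows from how the genes were picked, so no conclusion is drawn from it. LAR1 was uncalled and its groups overlapped, so genes chosen for likeness to it tend to be uncalled, and called genes tend to be unlike it.

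**Figure D4:**
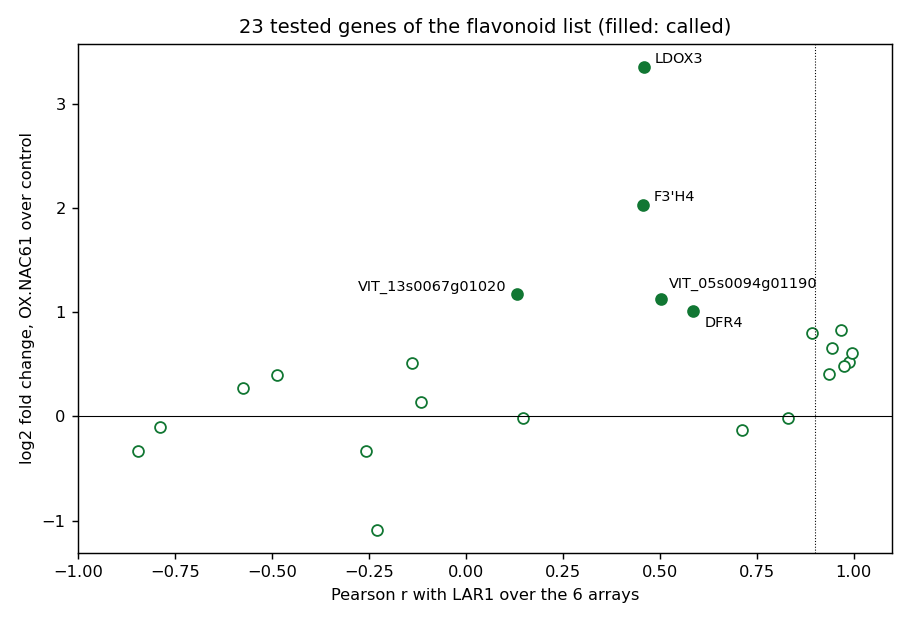
Log2 fold change of OX.NAC61 over control against Pearson r with LAR1 over the 6 arrays for the 23 tested genes of the flavonoid list, with called genes filled and named and a dotted line at r = 0.9. The 6 genes to the right of the line have differences of 0.41 to 0.83 and are not called, which likeness to the uncalled LAR1 already favours.

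The anthocyanidin reductase VIT_00s0361g00020 lies near ANR by identifier. Its log2 level was -2.68, -3.06 and -4.17 on the controls and -1.75, -3.12 and -3.81 on the OX.NAC61 arrays, with r of 0.96 with ANR, and it differed by 0.41 (SE 0.61, limma adjusted p = 0.76). The spread of this gene thus followed that of ANR at a weaker signal. Whether probes of ANR and of this gene, or of LAR1 and LAR2, share signal was not tested, because probe sequences were not used here.

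By identifier, 28 features lay within 20 locus numbers of a member, and 26 of them were tested. A single one was called, where 6.81% of all tested features were. It was VIT_08s0007g07250 beside MYB5a, with a log2 difference of -1.15 (SE 0.25, adjusted p from limma = 0.07). This call was lost on leaving out any array but OX.NAC61 replicate 1 (adjusted p 0.13 to 0.25). It was also lost with scan day (0.45), recorded slide (0.20) or replicate (0.12) as a block. The same held with no filter on dim probes (0.105) and under normexp with 75th percentile scaling (0.26). MYB5a itself differed by -0.09. Beside MYBPA2, which was below background, VIT_11s0016g01300, VIT_11s0016g01320 and VIT_11s0016g01330 were well above background on 6 arrays. Beside MYBPA1, VIT_15s0046g00190 had r = 0.89 with the member and VIT_15s0046g00150 r = 0.73, whereas VIT_15s0046g00160 and VIT_15s0046g00180 had r of 0.09 and -0.59.

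**Figure D5:**
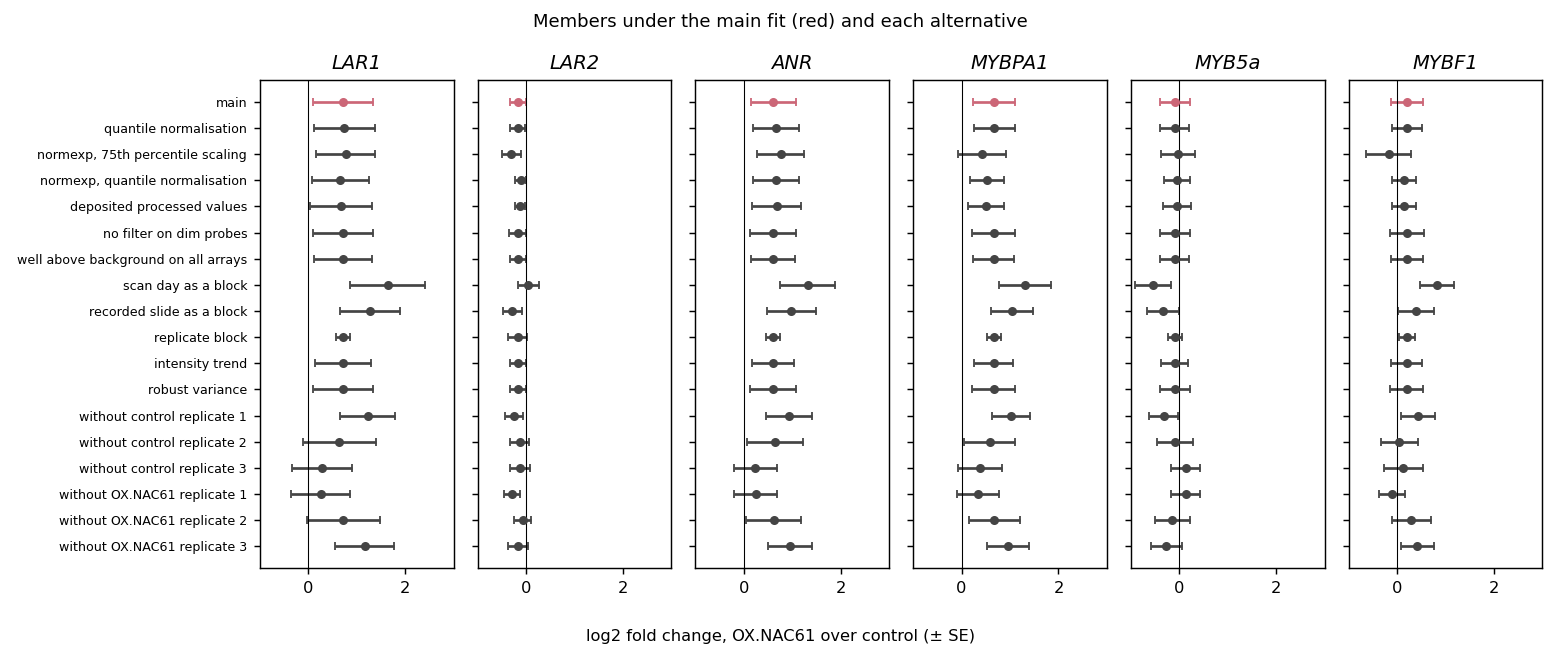
Log2 fold change of OX.NAC61 over control (± SE) of the 6 tested members in the reported fit (red) and under 17 alternatives (dark). LAR1, ANR and MYBPA1 stay above 0 in each, between 0.24 and 1.64, and no member is called in any of them.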

How the data were processed

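Single-colour Agilent arrays of long oligonucleotide probes measured leaf RNA of 3 control and 3 OX.NAC61 plants. Per the file headers, the scanner intensity of each spot was deposited as extracted by Agilent Feature Extraction 10.5.1.1 (median signal, local background and background-subtracted processed signal), with no normalisation across arrays. A second deposited table held log2 values, in which each column ranked probes as median signal less background did (Spearman 1) and medians were nearly equal (9.61 to 9.62), and the authors' methods named limma. It was used as an alternative.

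Here, control spots were left out, spots flagged as outliers were set to missing, and the log2 processed signal was scaled to the 75th percentile of each array. Features detected well above background on 3 or more arrays were fitted with limma 3.58.1 in R 4.3.3 (lmFit, eBayes, two-sided, no covariate, all 6 arrays), and p-values were adjusted by Benjamini-Hochberg over all tested features. The fit was tested on simulated data. The alternatives were other scalings and background corrections, filters, blocks, variance models and thresholds, and leaving out each array. The mean signal was not used here, so normexp took the median signal.

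The 7 members, the flavonoid list and the markers were chosen with earlier results of these data known. Named genes are the members, the called genes of the list, the annotated neighbour of ANR, the 2 features most like each member and neighbours by identifier. Genes of the list that shared the pattern of LAR1, and the dihydroflavonol reductases DFR5 and VIT_15s0046g01170, were named after their values were seen. Names are those the study gives, except for the 7 members, whose names came with their selection by identifier. The array identifiers were not matched to the RefSeq table used here, and no coordinates are given. With 3 arrays a group, the number of arrays limits the precision.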

Additional observations from a re-analysis of the deposited data

Results flagged for a closer look

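FLS7, a flavonol synthase of the flavonoid list that was too dim to be tested, was well above background on 2 of the 3 OX.NAC61 arrays (replicates 2 and 3, both of scan day 2) and on 0 of the 3 controls. Its log2 levels were -9.15, -8.58 and -6.87 on the controls and -8.72, -5.67 and -6.93 on the OX.NAC61 arrays, so control replicate 3 was as high as OX.NAC61 replicate 3. VIT_00s0361g00060, within 20 locus numbers of ANR, was well above background on 1 OX.NAC61 array (replicate 1) and on 0 controls. Groups of 3 arrays were not examined for single outlying values.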

How the results depend on the processing

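No member was called under any of the 19 alternatives. Of 102 member differences recomputed, 97 kept their direction. The exceptions were MYBF1 at -0.17 with normexp background correction and 75th percentile scaling (0.33 relative to the median of all features, which that setting moved to -0.50) and -0.11 without OX.NAC61 replicate 1, LAR2 at 0.051 with scan day as a block, and MYB5a at 0.13 without control replicate 3 and 0.13 without OX.NAC61 replicate 1. Leaving out 1 array moved LAR1 between 0.25 and 1.22, ANR between 0.24 and 0.95, MYBPA1 between 0.34 and 1.03, MYBF1 between -0.11 and 0.43, MYB5a between -0.33 and 0.13 and LAR2 between -0.28 and -0.07. MYBPA2, below background on every array, was fitted only with no filter on dim probes (-0.71, SE 0.30, limma adjusted p = 0.23), a difference between signals that were both below background and no fold. Over all features, the correlation of deviations between arrays of one replicate number was 0.21, -0.04 and 0.21, and 2 of 6 arrays correlated best with their own number. With 3 arrays a group this cannot decide whether the numbers mark pairs. OX.NAC61 less control of the same number, for replicates 1, 2 and 3, was 0.61, 0.84 and 0.69 for LAR1. It was 0.68, 0.50 and 0.64 for ANR and 0.58, 0.80 and 0.61 for MYBPA1. With the replicate block, the SE of each of these 3 was 0.14. The limma adjusted p was 0.12 for LAR1, 0.14 for ANR and 0.13 for MYBPA1, and 1020 features and 3 genes of the flavonoid list were called. The features called numbered 0 with normexp and 75th percentile scaling (3306 at an unadjusted p under 0.05), 1157 in the deposited values, 13 with scan day as a block, 589 with recorded slide as a block, 657 at an adjusted p below 0.05, and 71 to 3225 without 1 array. The flavonoid list had 0 called with normexp and 75th percentile scaling, 0 with scan day as a block, 2 with slide as a block, 3 at an adjusted p below 0.05, and 0 to 6 without 1 array. The causes were not tested. The reference genes UBI1 and EF1 differed by 0.04 and -0.25 in the main fit, neither past the test. Under the other scalings they differed by 0.36 to 0.54 and -0.20 to -0.11. UBI1 had a limma adjusted p of 0.054 in the deposited values (0.54) and 0.055 under normexp with quantile normalisation (0.52). Both are below 0.1, and UBI1 was not called there because its fold was not above 1.5. The 2 OX.NAC61 arrays 1 and 3 carried the same recorded slide position, so slide blocks may rest on a wrong record. The 3 arrays a group limit each value, and MYBPA2 and FLS7 are limited by signal over background.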
